A study of Mus musculus with 12 samples.

Results

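A set of 6 macrophage and monocyte genes was followed across 12 mouse tumors: the fractalkine receptor Cx3cr1 and its ligand Cx3cl1, the monocyte chemokine receptor Ccr2, and the macrophage surface receptors Mrc1, Cd163 and Folr2. They are 6 of the 18193 genes that had a probe set with a single gene symbol, and all 6 were bright enough to be among the 12735 genes tested. Cx3cr1 and Mrc1 were selected on their change in log2 intensity with the antibody 1D11 in these same tumors, Cx3cr1 as lower and Mrc1 as higher, so their differences with 1D11 are given as a description and carry no test. Each gene was read from the probe set with the highest mean over the 12 arrays. The tumors were LLC (Lewis lung carcinoma, a line of mouse lung cancer) grown under the skin of female C57BL/6 mice of 6 to 8 weeks, and treatment began at a volume of 60 to 80 mm3. There were 4 groups of 3 tumors, all collected on day 19, and every group received an antibody. Control tumors received 13C4, the isotype control. The 1D11 tumors received 1D11, an antibody that neutralizes TGF-beta. Radiation tumors received 13C4 and irradiation, and the 1D11_radiation tumors received 1D11 and irradiation. The sample characteristics give the irradiation as 5 fractions of 6 Gy, whereas the sample descriptions give 2 Gy and speak of cells. The values come from whole tumors of a single transplanted line, so macrophages are one of many cell types in each sample. The labels do not say more about how the 3 samples of a group are related, and p-values measure the spread between these samples only.

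CX3CR1 is a chemokine receptor of patrolling monocytes, many tissue macrophages and microglia, and some natural killer and T cells. Its ligand CX3CL1 is made on the membrane of endothelial and epithelial cells and is shed by proteases. CCR2 draws classical monocytes from the blood into tissue, where they become macrophages and commonly lose CCR2. MRC1, the mannose receptor CD206, takes up glycoproteins, CD163 takes up hemoglobin bound to haptoglobin, and FOLR2 is a folate receptor of resident-type macrophages. These receptors are widely used as markers of alternatively activated or tissue-resident macrophages. In microglia, TGF-beta is known to sustain the expression of Cx3cr1.

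The regions just upstream of Cx3cr1 and Mrc1 are shown because these genes, a receptor and a scavenger gene, were chosen for opposite changes with 1D11. Each is the 250 bases before the annotated start on the strand of the gene, from RefSeq on GRCm38.p6, with the Cx3cr1 window at chr9:120068297-120068546 (minus strand) and the Mrc1 window at chr2:14229164-14229413 (plus strand). Capitals mark matches to the SMAD half-site CAGAC in Cx3cr1 and to the PU.1 core GAGGAA in Mrc1, all of which read as the motif on the opposite strand.
Cx3cr1: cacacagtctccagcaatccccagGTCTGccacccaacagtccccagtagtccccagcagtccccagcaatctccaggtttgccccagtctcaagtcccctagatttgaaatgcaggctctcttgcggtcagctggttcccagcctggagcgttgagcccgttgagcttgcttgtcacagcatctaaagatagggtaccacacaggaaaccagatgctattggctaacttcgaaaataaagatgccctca
Mrc1: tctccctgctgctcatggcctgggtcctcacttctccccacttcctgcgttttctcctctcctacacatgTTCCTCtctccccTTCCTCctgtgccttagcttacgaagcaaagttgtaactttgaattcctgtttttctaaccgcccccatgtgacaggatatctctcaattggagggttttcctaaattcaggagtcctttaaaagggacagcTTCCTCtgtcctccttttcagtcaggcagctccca
The Cx3cr1 window held 1 match to CAGAC, whose first base lay 226 bases before the start, and no match to GAGGAA. The Mrc1 window held 3 matches to GAGGAA, at 180, 167 and 35 bases before the start, and none to CAGAC. The AP-1 motif TGANTCA matched neither window. Both strands were searched. Among 32851 promoter windows of the same length 42.2% held CAGAC, 23.3% held GAGGAA and 6.7% held TGANTCA, each counted from 1 match up. A window with a match to CAGAC or GAGGAA is therefore frequent, but the share of windows with 3 matches was not computed.

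The deposited values were probe set intensities, and levels are given as log2 intensity. They describe RNA in whole tumors, in which fewer cells of a type and less RNA per cell cannot be told apart. The pan-macrophage genes were bright: all 16 measured members (Adgre1, Csf1r, Cd68, the C1q genes and others) were tested, and their summed intensity was 30429 to 46705 per tumor. Some tumors stood apart in other tissue. The score of 10 skeletal muscle markers (mean of centred log2 values) ran from -1.50 to 0.65 in most tumors but reached 1.20 in control replicate 1 and 2.12 in the radiation group, in replicate 3. The score of keratinocyte markers was 1.04 in 1D11 replicate 1 and 2.29 in 1D11 replicate 3, against -0.45 to -0.18 in the rest, with 4 of the 8 measured markers below the floor in every tumor. Results are given with and without those tumors, or with those scores in the model, wherever this changed a call of a member gene.

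**Figure D1:**
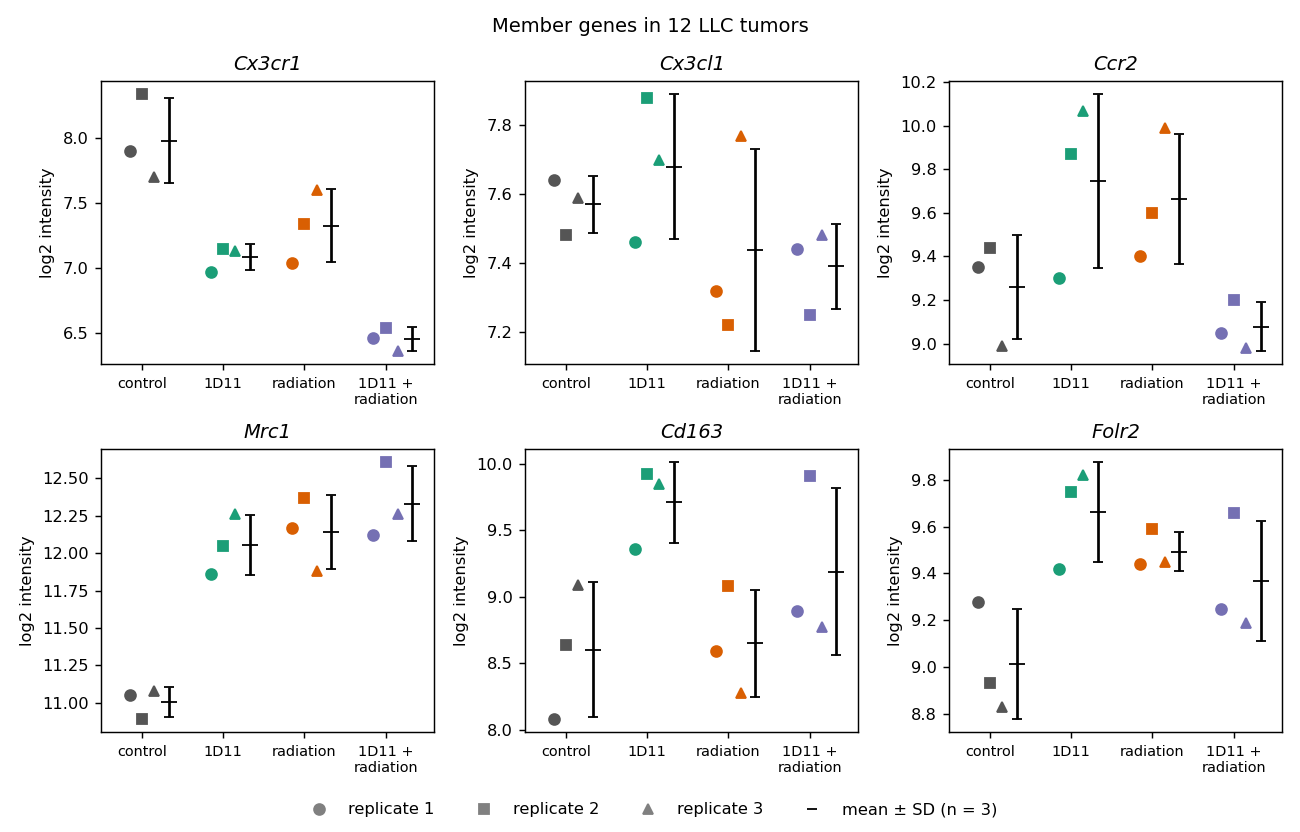
Log2 intensity (y axis) of the 6 genes in the 4 treatment groups (x axis); each symbol is a tumor and the black bar is the mean ± SD of 3. Cx3cr1 was highest in control and lowest in 1D11_radiation tumors (means of 7.98 and 6.46), and Mrc1 was lowest in control tumors (mean 11.005) and between 11.86 and 12.61 in all others.

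Cx3cr1 was lower in every treated group than in control tumors, and the levels formed 3 steps. The log2 intensity of its brighter probe set was 7.90, 8.34 and 7.70 in the control tumors and 6.97, 7.15 and 7.13 in the 1D11 tumors. It was 7.04, 7.34 and 7.60 in the radiation tumors and 6.46, 6.54 and 6.36 in the 1D11_radiation tumors. Every control tumor lay above all other tumors, every 1D11_radiation tumor lay below all other tumors, and the 1D11 and radiation tumors overlapped between them. The group means were 7.98 ± 0.32, 7.09 ± 0.10, 7.33 ± 0.28 and 6.46 ± 0.09 (SD, n = 3) in the order control, 1D11, radiation and 1D11_radiation.

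As a description, Cx3cr1 differed by -0.89 ± 0.16 (log2 difference ± SE of the model) with 1D11 in unirradiated tumors, which is 1.86-fold. The difference with 1D11 in irradiated tumors was -0.87 ± 0.16, or 1.83-fold. Both differences were of nearly the same size, and the interaction, the effect of radiation under 1D11 minus that under 13C4, was 0.02 ± 0.23. Between 1D11_radiation and control tumors the difference was -1.52 ± 0.16, or 2.88-fold.

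The radiation main effect, the mean of the 6 irradiated tumors minus that of the 6 others, is orthogonal to the differences between 1D11 and 13C4 at the same radiation. Which comparison with 1D11 was used to choose Cx3cr1 and Mrc1 is not stated. Had it been 1D11_radiation against control, the radiation main effect would share that difference and its p for these genes would not be independent of the choice. Cx3cr1 fell by 0.64 ± 0.12 in it (1.56-fold; adjusted p = 0.01092 by limma with Benjamini-Hochberg adjustment over all genes tested). Of all genes tested, 7.26% were called in this effect, at an adjusted p under 0.05. As a description without a test, the difference within each antibody had the same direction, -0.65 ± 0.16 under 13C4 and -0.63 ± 0.16 under 1D11. These differences share groups with the comparisons of 1D11. When each tumor was left out in turn the effect stayed between -0.71 and -0.55 and was called in 12 of 12 fits. With the keratinocyte score in the model it was -0.65 with an adjusted p of 0.05298.

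A second Cx3cr1 probe set was much dimmer, with a mean over the 12 arrays of 4.87 that lies below the floor of 5.37 for testing. It read 5.35, 5.17 and 4.98 in control tumors, 4.75, 4.89 and 4.90 with 1D11, 4.79, 4.92 and 4.55 with radiation, and 4.56, 4.75 and 4.77 with both. Its control tumors again lay above all others, but the other 3 groups overlapped. Its radiation main effect was -0.28 ± 0.08 with an adjusted p of 0.07533, and with 1D11 in irradiated tumors it differed by only -0.06 ± 0.12. The further step down in 1D11_radiation tumors was therefore seen in the bright probe set and was not seen in this one.

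Cx3cl1, the ligand, had no comparison called, and its probe sets differed in how the groups lay. The log2 intensity of the brightest was 7.64, 7.48 and 7.59 in control tumors, 7.46, 7.88 and 7.70 with 1D11, 7.32, 7.22 and 7.77 with radiation, and 7.44, 7.25 and 7.48 with both. All 4 groups overlapped in this probe set. With 1D11 in unirradiated tumors the difference was 0.11 (95% interval -0.20 to 0.43). The radiation main effect was -0.21 ± 0.10 (adjusted p = 0.2335), and it became -0.29 (adjusted p = 0.04868) without radiation replicate 3, the tumor with the highest muscle score, and -0.27 (adjusted p = 0.04631) with array weights, which give less weight to arrays that deviate more. The second probe set, with a mean over the 12 arrays of 5.72, read 5.84, 5.96 and 5.83 in control tumors, 5.58, 5.68 and 5.77 with 1D11, 5.72, 5.68 and 5.68 with radiation, and 5.45, 5.72 and 5.69 with both. Here every control tumor lay above every treated tumor. Its difference with 1D11 in unirradiated tumors was -0.20 ± 0.09 (adjusted p = 0.3584), opposite in sign to that of the brightest probe set, and its radiation main effect was -0.12 ± 0.06 (adjusted p = 0.3146). The other 2 probe sets had means of 5.17 and 4.45, below the floor.

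No gene that sheds or induces CX3CL1 was called in the radiation main effect or between 1D11 and control tumors, though Adam17 lay near the threshold. Of 7 tested members (Adam10, Adam17, Mmp2 and others), 3 were higher and 4 lower in the radiation main effect with a median of -0.11, against -0.01 over all genes, and limma called none (1 at an unadjusted p under 0.05). That one was Adam17, a protease that sheds CX3CL1, at -0.24 ± 0.07 (adjusted p = 0.06062). It was called in 7 of 11 other settings, for example at -0.26 (adjusted p = 0.04897) with the pan-macrophage score in the model, and in 2 of the 12 fits that left out a tumor. With 1D11 in unirradiated tumors 5 were higher and 2 lower with a median of 0.06, again with none called and 1 at an unadjusted p under 0.05. The largest evidence there was for Mmp2, a matrix protease, at 0.90 ± 0.39 (adjusted p = 0.3371).

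Mrc1 was among the brightest genes on the array, above 96.4% of gene means, and was lower in control tumors than in every other tumor. Its single probe set read 11.05, 10.89 and 11.08 in control tumors and 11.86, 12.05 and 12.26 in 1D11 tumors. It read 12.17, 12.37 and 11.88 with radiation and 12.12, 12.61 and 12.26 with both. The control tumors lay close together and well below every treated tumor, whereas the 3 treated groups overlapped. The means were 11.005 ± 0.10, 12.06 ± 0.20, 12.14 ± 0.25 and 12.33 ± 0.25 (SD, n = 3) in the order control, 1D11, radiation and 1D11_radiation.

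As a description, Mrc1 was higher by 1.05 ± 0.15 with 1D11 in unirradiated tumors (2.07-fold) and by 0.19 ± 0.15 with 1D11 in irradiated tumors (1.14-fold). Radiation under 13C4 went with a difference of 1.14 ± 0.15 (2.20-fold), and radiation under 1D11 with 0.27 ± 0.15 (1.21-fold). Both treatments together gave 1.32 ± 0.15 against control (2.50-fold), which is less than the sum of the separate differences, and the interaction was -0.87 ± 0.22. For Cx3cr1, the second treatment went with a further difference about as large as that of the first.

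In the radiation main effect, with the same doubt about independence from its choice as for Cx3cr1, Mrc1 rose by 0.70 ± 0.11 (1.63-fold; adjusted p = 0.006952). Leaving out each tumor in turn gave 0.63 to 0.77, and the call held in 12 of 12 fits. The main effect averages a large difference under 13C4 and a small one under 1D11, where the groups overlapped.

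No other member of the mannose receptor family and endocytic lectins was called in the comparisons described here. Of 8 tested members, 5 were higher and 3 lower in the radiation main effect (median 0.12), and limma called none, with 1 at an unadjusted p under 0.05. Between 1D11 and control tumors 7 were higher and 1 lower (median 0.19, against 0.04 over all genes), again with none called and 1 at an unadjusted p under 0.05. Of all 12735 genes tested, 7913 were higher between these groups. Mrc2, a relative of Mrc1 that takes up collagen, differed by 0.31 ± 0.12 (adjusted p = 0.3107).

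Cd163 had its highest mean in 1D11 tumors, but its spread was wide and no comparison of it was called. It read 8.08, 8.64 and 9.09 in control tumors, 9.36, 9.92 and 9.85 with 1D11, 8.59, 9.08 and 8.28 with radiation, and 8.89, 9.91 and 8.77 with both. The 1D11 and control tumors did not overlap, whereas the irradiated groups overlapped with each other. The difference with 1D11 in unirradiated tumors was 1.11 ± 0.33 (adjusted p = 0.2111), and in irradiated tumors it was 0.54 ± 0.33 (adjusted p = 0.8396). The 1D11 main effect was 0.83 ± 0.24 (adjusted p = 0.2759), in which 0.00785% of all genes were called. Radiation under 13C4 left Cd163 at a difference of 0.05 (95% interval -0.69 to 0.78).

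Folr2 had its lowest mean in control tumors, as did Mrc1, but its highest mean was with 1D11 alone, and its differences were smaller. It read 9.28, 8.93 and 8.83 in control tumors, 9.42, 9.75 and 9.82 with 1D11, 9.44, 9.59 and 9.45 with radiation, and 9.25, 9.66 and 9.19 with both. The 1D11 tumors and the radiation tumors all lay above the control tumors, while the tumors with both treatments overlapped with every group. The difference was 0.65 ± 0.15 with 1D11 in unirradiated tumors (unadjusted p = 0.0013, adjusted p = 0.1407 in limma) and 0.48 ± 0.15 with radiation under 13C4 (adjusted p = 0.1235). The interaction was -0.78 ± 0.22 (adjusted p = 0.4005). With array weights the radiation difference was 0.62 (adjusted p = 0.02327), the difference between both treatments and 1D11 alone -0.44 (adjusted p = 0.03131) and the interaction -1.05 (adjusted p = 0.02986), so these calls depend on how the arrays are weighted.

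Ccr2 had its lowest mean with both treatments and higher means with either alone, though no comparison of it was called. The tumors read 9.35, 9.44 and 8.99 in the control group, 9.30, 9.87 and 10.07 with 1D11, 9.40, 9.60 and 9.99 with radiation, and 9.05, 9.20 and 8.98 with both. The 1D11_radiation tumors lay below all 1D11 tumors and all radiation tumors but overlapped with control. Against 1D11 alone the difference was -0.67 ± 0.20 (adjusted p = 0.1531), and against radiation alone it was -0.58 ± 0.20 (adjusted p = 0.8396). The interaction was -1.07 ± 0.29 (unadjusted p = 0.003265, adjusted p = 0.3951 in limma), and the other probe sets gave -0.86, -0.58 and -1.06. With array weights the difference between both treatments and 1D11 alone was -0.77 (adjusted p = 0.01369); no other setting called it.

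**Figure D2:**
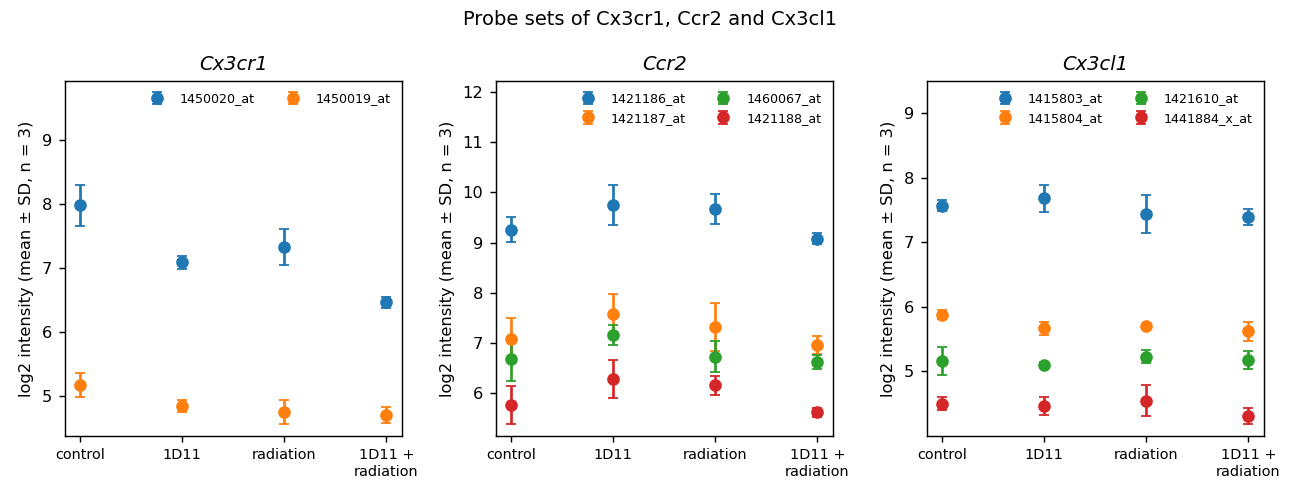
Mean log2 intensity ± SD of 3 tumors (y axis) by group (x axis) for each probe set of Cx3cr1, Ccr2 and Cx3cl1, in separate colours. The brighter Cx3cr1 probe set had means from 7.98 (control) down to 6.46 (1D11_radiation) and the dimmer one from 5.17 to 4.70, and all 4 Ccr2 probe sets had their lowest mean in 1D11_radiation tumors.

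Among 8 tested CCR2 ligands and monocyte egress genes, 3 rose in the radiation main effect and none fell, beside 7.26% of all genes called in either direction, and the median was 0.24. The CCR2 ligand Ccl12 rose by 0.78 ± 0.11 (adjusted p = 0.004917), Ccl8, a monocyte-attracting chemokine, rose by 1.31 ± 0.31 (adjusted p = 0.02813), and Csf1, a growth factor of macrophages, rose by 0.36 ± 0.08 (adjusted p = 0.02145). Ccl12 stayed called in all 12 fits that left out a tumor, Csf1 in 7 and Ccl8 in 6. Ccl2, the main CCR2 ligand, was at -0.05 ± 0.16 (adjusted p = 0.8814). Ccr2 itself was at -0.13 ± 0.14 in the same effect (adjusted p = 0.6314).

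**Figure D3:**
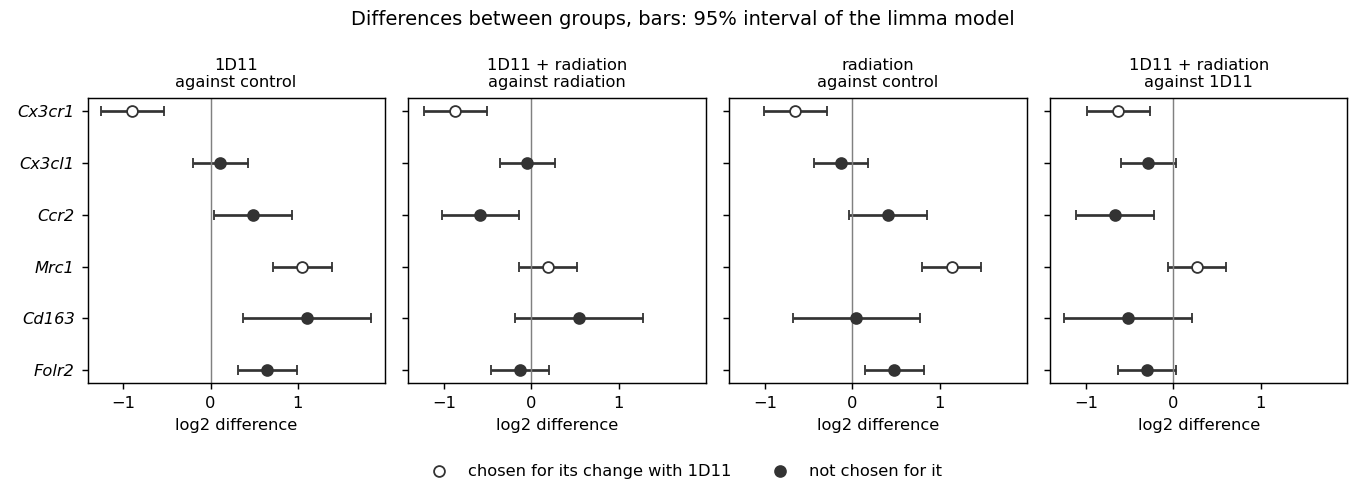
Log2 difference (x axis) of each gene in 4 comparisons of groups of 3 tumors, with the 95% interval of the limma model; open circles are the genes chosen for their change with 1D11. Mrc1 was at 1.05 with 1D11 and 1.14 with radiation when each was given alone and at 0.19 and 0.27 when the other was present, whereas Cx3cr1 was between -0.89 and -0.63 in all 4.

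Set against all genes, the shares were as follows. Between 1D11 and control tumors 3 of the 6 genes were higher without overlap (Mrc1, Cd163 and Folr2) and 1 was lower (Cx3cr1), beside 12.1% and 6.95% of all genes; both chosen genes are in these counts. Between 1D11_radiation and radiation tumors 2 genes did not overlap, both lower (Cx3cr1 and Ccr2), beside 13.4% of all genes in either direction. Between radiation and control tumors 3 did not overlap (Mrc1 and Folr2 higher, Cx3cr1 lower), beside 20.6%. Between 1D11_radiation and 1D11 tumors 2 did not overlap, again Cx3cr1 and Ccr2 and both lower, beside 26.1%. Among the 4 genes not chosen for their change (Cx3cl1, Ccr2, Cd163 and Folr2), limma called none in any of the 8 comparisons. Of those 32 tests 11 had an unadjusted p under 0.05, and array weights called 5. Over all 12735 genes tested, the number with an unadjusted p under 0.05 ran from 688 (1D11_radiation against radiation) to 3099 (radiation main effect). The share of all genes called was 0.0157% for 1D11 against control and 0% for 1D11_radiation against radiation, where 688 genes had an unadjusted p under 0.05 and array weights called 6. It was 2.39% for radiation against control, 0.0785% for 1D11_radiation against 1D11 and 2.35% for 1D11_radiation against control. No gene was called in the interaction (0%), where 952 genes had an unadjusted p under 0.05 and array weights called 122. These comparisons share groups, so the members' values in them are not independent of each other.

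The pan-macrophage genes differed in several of the same comparisons. With 1D11 in unirradiated tumors 15 of 16 pan-macrophage genes were higher and 1 was lower (median 0.28), and limma called none, with 3 at an unadjusted p under 0.05. Of all 12735 genes tested, 7913 were higher there and 1800 had an unadjusted p under 0.05. The smallest p in the list was that of Fcgr1, an IgG receptor, at 0.86 ± 0.13 (adjusted p = 0.08109). With radiation under 13C4 15 of 16 were higher (median 0.33), and Fcgr1 (0.84 ± 0.13), the integrin Itgam (0.59 ± 0.13) and the signalling subunit Fcer1g (0.56 ± 0.11) rose. Of all genes, 2.39% were called in that comparison in either direction. With 1D11 in irradiated tumors all 16 were lower (median -0.27), with none called and 4 at an unadjusted p under 0.05. The interaction was below 0 for all 16 (median -0.53), with none called and 8 at an unadjusted p under 0.05.

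The pan-macrophage score was -0.03, -0.16 and -0.37 in control tumors, -0.04, 0.17 and 0.26 with 1D11, 0.12, 0.22 and 0.08 with radiation, and -0.27, 0.14 and -0.13 with both. Cx3cr1 went the other way in the groups with a single treatment: its centred level minus this score was 0.95 ± 0.29 in control, -0.26 ± 0.08 with 1D11, -0.03 ± 0.31 with radiation and -0.67 ± 0.17 with both (SD, n = 3). For Mrc1 the same quantity was -0.69 ± 0.22, 0.05 ± 0.06, 0.12 ± 0.18 and 0.53 ± 0.04 in the same order, so that it was lowest in control and highest with both treatments. For Folr2 it ran from -0.18 to 0.15 over the group means, a range of less than the difference of 0.65 in level.

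With the pan-macrophage score as a covariate, an alternative chosen after seeing the data, the radiation main effect of Cx3cr1 was -0.67 ± 0.12 (adjusted p = 0.01316) and that of Mrc1 was 0.65 ± 0.09 (adjusted p = 0.00454). The interaction of Mrc1 moved from -0.87 to -0.37, that of Folr2 from -0.78 to -0.13 and that of Ccr2 from -1.07 to -0.50. The difference of Folr2 with 1D11 in unirradiated tumors moved from 0.65 to 0.27, that of Mrc1 from 1.05 to 0.76, and that of Cx3cr1 from -0.89 to -1.03. With radiation under 13C4 Mrc1 moved from 1.14 to 0.83 and Cx3cr1 from -0.65 to -0.80. The radiation main effects of Cx3cr1 and Mrc1 were thus of similar size with the score in the model. The interactions of Mrc1, Folr2 and Ccr2 were smaller, as were the differences of Mrc1 from control with either treatment alone. Other values of Mrc1 became larger, from 0.19 to 0.40 with 1D11 in irradiated tumors and from 0.27 to 0.47 with radiation under 1D11. The interaction of Cx3cr1 moved from 0.02 to 0.26 ± 0.33, and its difference with 1D11 in irradiated tumors moved from -0.87 to -0.77.

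**Figure D4:**
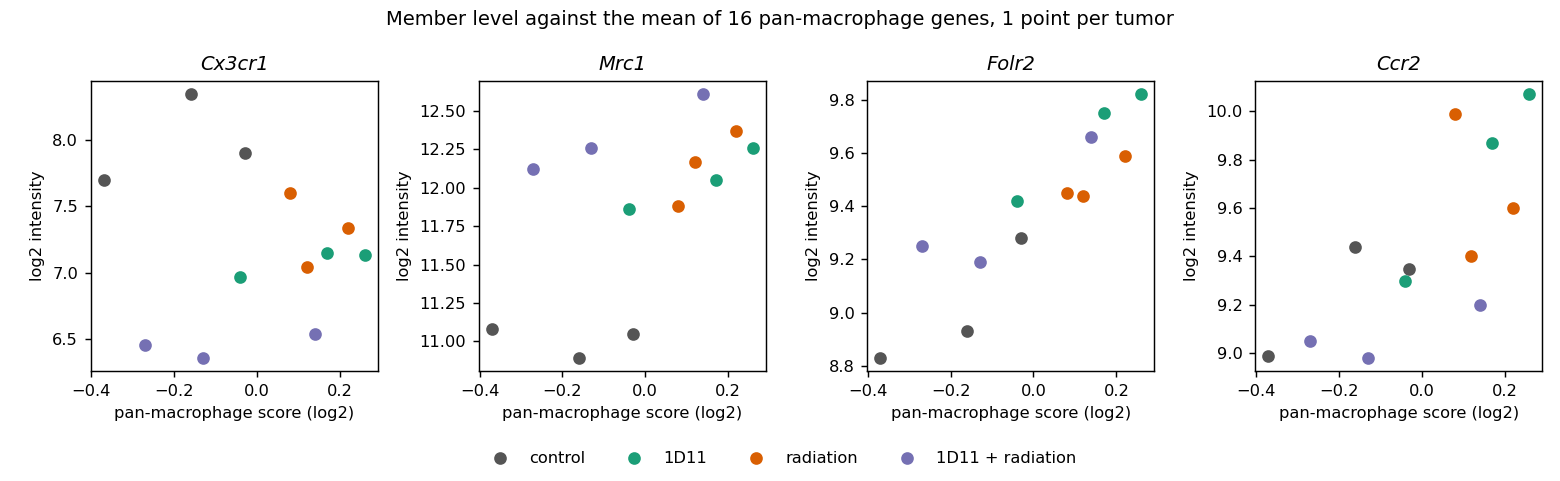
Log2 intensity of 4 genes (y axis) against the pan-macrophage score (x axis, mean of 16 centred log2 values), with 1 point per tumor coloured by group. In each group the tumor with the highest score was also the highest in Folr2, whereas Cx3cr1 was lowest in the 1D11_radiation tumors at scores from -0.27 to 0.14 and highest in the control tumors at scores from -0.37 to -0.03.

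Other genes of resident-type macrophages were also higher in irradiated tumors, mainly under 13C4 and not all of them. Of 14 tested members 10 were higher in the radiation main effect (median 0.23, against -0.01 over all genes). Of the 14, 4 rose and 1 fell, beside 7.26% of all genes called in either direction. The platelet factor Pf4, which resident-type macrophages also make, rose by 0.75 ± 0.09 (adjusted p = 0.002724), the endocytic adaptor Dab2 by 0.33 ± 0.06 (adjusted p = 0.01167), and Ccl8 by the value given above. The complement receptor Vsig4 fell by 0.77 ± 0.15 (adjusted p = 0.01294). The main effect averages unlike differences. With radiation under 13C4 12 of 14 were higher (median 0.50) and limma called 2, beside 2.39% of all genes. With radiation under 1D11 8 were higher and 6 lower (median 0.03), with none called. The interaction was below 0 for 12 of 14 (median -0.50), with none called. Between 1D11 and control tumors 12 of 14 were higher (median 0.58), limma called none, and 9 had an unadjusted p under 0.05. Of all 12735 genes tested, 7913 were higher in that comparison and 1800 had an unadjusted p under 0.05. Lyve1, a hyaluronan receptor shared with lymphatic endothelium, was at 1.59 ± 0.31 and Pf4 at 0.72 ± 0.13 (both adjusted p = 0.1114). With 1D11 in irradiated tumors 7 of 14 were higher and 7 lower (median 0.03), with none called and 0 at an unadjusted p under 0.05.

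The alternatively activated macrophage genes, such as Arg1 and Chil3, had no member called in either comparison described here. In the radiation main effect 8 of 14 tested members were higher (median 0.01), and limma called none, with 1 at an unadjusted p under 0.05. With 1D11 in unirradiated tumors 11 of 14 were higher (median 0.36), with none called and 7 at an unadjusted p under 0.05. Over all 12735 genes tested, 7913 were higher there and 1800 had an unadjusted p under 0.05. The scavenger receptor Stab1 was at 0.63 ± 0.15 (adjusted p = 0.1407) and the inhibitory receptor Cd200r1 at 0.42 ± 0.11 (adjusted p = 0.1652).

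Of the genes that mark monocytes, 1 in each of 2 lists was called in the radiation main effect, which in lists this short is near the 7.26% of all genes. Of 9 tested classical monocyte genes 1 fell in that effect, the proteoglycan Vcan by 0.52 ± 0.11 (adjusted p = 0.0191), and the median was -0.05. Which cells of the tumors gave the Vcan signal was not tested. Of 7 tested nonclassical monocyte genes, the class that carries high Cx3cr1, 1 rose, the transcription factor Nr4a1 by 0.34 ± 0.09 (adjusted p = 0.04221), and the median was -0.04. Nr4a1 stayed called in 3 of the 12 fits that left out a tumor. For 1D11 against control the medians were 0.29 for classical and 0.08 for nonclassical genes, and limma called none of either (4 and 1 at an unadjusted p under 0.05).

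The TGF-beta-dependent genes of microglia, with which Cx3cr1 is commonly grouped, were mixed. In the radiation main effect 9 of 12 tested members were lower (median -0.12). Beside 7.26% of all genes called, 1 of them fell, the microglial surface protein Tmem119 by 0.75 ± 0.11 (adjusted p = 0.006084 in limma). Tmem119 stood at 8.99 ± 0.25 in control tumors, 8.57 ± 0.09 with 1D11, 8.02 ± 0.31 with radiation and 8.03 ± 0.17 with both (SD, n = 3). These tumors grew under the skin, and which of their cells gave the Tmem119 signal was not tested. For 1D11 against control 7 were higher and 5 lower (median 0.06), with none called and 5 at an unadjusted p under 0.05. Over all 12735 genes tested, 7913 were higher there and 1800 had an unadjusted p under 0.05. The receptor P2ry12 was at 0.83 ± 0.20 (adjusted p = 0.1425) and the lectin Siglech at -0.42 ± 0.10 (adjusted p = 0.1407), that is, on opposite sides.

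Of the TGF-beta response genes, 9 of 10 tested members were lower with 1D11 in unirradiated tumors (median -0.26) and 8 of 10 in irradiated tumors (median -0.11). The same count, 9 of 10, was lower with radiation under 13C4, where no 1D11 was given (median -0.19). Limma called none in these 3 comparisons, with 3, 1 and 2 at an unadjusted p under 0.05. The score of the list (mean of centred log2 values) was -0.04 to 0.52 in control tumors and -0.08 to 0.01 with 1D11, so these groups overlapped. In the radiation main effect Pmepa1, a feedback inhibitor of TGF-beta signalling, fell by 1.11 ± 0.20 (adjusted p = 0.01009). Its means were 8.49 ± 0.45 in control, 7.92 ± 0.08 with 1D11, 7.53 ± 0.18 with radiation and 6.66 ± 0.62 with both, so that control was the highest group and both treatments the lowest, as for Cx3cr1.

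Markers of other cell types moved in the same comparisons. Natural killer and cytotoxic genes, of cells that can carry Cx3cr1, had a summed intensity of 373 to 452 in control tumors, 489 to 645 with 1D11, 788 to 843 with radiation and 626 to 988 with both. All 5 tested members were higher in the radiation main effect and 3 of them rose (Gzmb 1.10 ± 0.16, Klrd1 0.92 ± 0.20 and Gzma 0.85 ± 0.18), which is the direction opposite to that of Cx3cr1. Of all genes, 7.26% were called in this effect in either direction. Of the measured members of that list 4 of 9 were too dim to be tested. Endothelial markers, of cells that make Cx3cl1, were lower in all 9 tested members in the same effect. Of these, Tek (-0.70 ± 0.09), Esam (-0.37 ± 0.09) and Vwf (-0.82 ± 0.22) fell, again beside 7.26% of all genes called. Their calls held in 12, 3 and 2 of the 12 fits that left out a tumor. The next values are for the whole endothelial list. Their summed intensity was 1480 to 2448 in control tumors, 1523 to 1877 with 1D11, 1242 to 1322 with radiation and 1477 to 1705 with both. The part of these cells in the levels of Cx3cr1 and Cx3cl1 was not tested.

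In the unirradiated tumors with 1D11, mast cell markers stood out beside Mrc1, Folr2 and Cd163. All 6 tested members were higher than in control (median 1.52), limma called none with 5 at an unadjusted p under 0.05, and the mast cell protease Mcpt4 was at 1.54 ± 0.24 (adjusted p = 0.08109). Of all 12735 genes tested, 7913 were higher in that comparison and 1800 had an unadjusted p under 0.05. The summed intensity of the mast cell markers was 2282 to 2486 with 1D11, against 679 to 1480 in control, 859 to 1135 with radiation and 535 to 956 with both. Dendritic cell markers, of which Cd209a is shared with macrophages, had a summed intensity of 618 to 654 with 1D11 against 481 to 517 in control. It was 598 to 785 with radiation and 546 to 567 with both, so the higher level was not particular to 1D11. Neither was tested as a part of the differences of the receptors.

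The genes most like Cx3cr1 over the 12 arrays, by Pearson correlation of log2 intensity, were Myct1 (r = 0.894), Amelx (0.887), Phyhipl (0.887), Mpnd (0.871) and Syt12 (0.864). Those most like Mrc1 were Nipa1 (0.956), Pf4 (0.954), Ndufs4 (0.944), Npl (0.943) and Timm22 (0.941). The arrays share the 4 group means, which set much of these values, and none of the 10 genes was among the 5 most alike once group means were subtracted. Among the members themselves r was -0.82 between Cx3cr1 and Mrc1, 0.74 between Mrc1 and Folr2, and 0.66 between Ccr2 and Folr2 over the same 12 arrays. Because Cx3cr1 and Mrc1 were chosen for opposite changes with 1D11 in these tumors, a negative r between them follows in part from that choice. Cx3cr1 and its ligand Cx3cl1 had an r of 0.31.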

How the data were processed

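RNA of 12 tumors was measured on Affymetrix 1-colour arrays. The authors deposited intensity values per probe set on a linear scale. Array medians were 62.3 to 66.1, so the values were already normalized between arrays; the methods of background correction, normalization and summary were not given in the sources used here. Per the labels' protocols, 6 µg of total RNA per sample were turned into cRNA carrying biotin. Probe sets were named through GEO's platform annotation: of 45101 probe sets, 34945 had a single symbol and 932 several, and 64 control probe sets were left out. The brightest probe set stood for each gene, and the lowest 30 percent of gene means (below 5.37 in log2) were not tested.

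The group comparisons used limma 3.58.1 (R 4.3.3) on log2 intensity (lmFit with a mean for each of the 4 groups, eBayes, two-sided tests, 8 residual and 3.11 prior degrees of freedom), and a gene was called where its p, adjusted by Benjamini-Hochberg, was under 0.05. The procedure was tested on simulated data. The 6 members and all gene lists were chosen with earlier results of these data known. The genes named were the 6 members in every comparison, their other probe sets, and the 5 genes most like Cx3cr1 and Mrc1 by correlation. From each list up to 4 called members with the smallest p were named (or 2 where none was called). The called genes Ccl8 and Slc40a1 each count under both of their lists. Alternatives were the offset, filter, probe set choice, quantile normalization, array weights, trend and robust fits, the replicate number as a block, and leaving out tumors. Scores of pan-macrophage, muscle and keratinocyte genes as covariates, and leaving out control replicate 1 and radiation replicate 3 together, were chosen after seeing the data. With 3 arrays per group, their number limits the precision.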

Additional observations from a re-analysis of the deposited data

How the results depend on the processing

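The calls of Cx3cr1 and Mrc1 in the radiation main effect held when any tumor was left out. Over all alternatives of the 6 genes, 1163 values kept their side of the threshold or, without a test, moved by less than 1 SD. Of the others, 2 lost the threshold, 6 gained it, 19 values without a test moved by more than 1 SD, and 0 reversed. Only the radiation main effects of Cx3cr1 and Mrc1 were called in the main fit, so most of these values had no call to lose. A change of sign counted as reversed only where a call was involved or, without a test, where the difference was over 2 SE. Uncalled differences could change sign: Cd163 with radiation under 13C4 went from 0.05 to -0.29 with the pan-macrophage score in the model. The 2 lost were the radiation main effect of Cx3cr1 with the keratinocyte score (adjusted p = 0.05298) and on the dimmer probe set (adjusted p = 0.07533). Replicate numbers did not pair the tumors: once group means were subtracted, arrays of the same number had an r between -0.31 and 0.27, and 3 of 18 pairs were over 0.1. With the replicate block the radiation main effect had an adjusted p of 0.01996 for Cx3cr1 and 0.01603 for Mrc1, and no call of the 6 genes changed.

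Counts of genes called moved more, and the cause was not tested. For 1D11 against control (2 genes) the count was 0 with the mean of probe sets, quantile normalization, the replicate block, the pan-macrophage or keratinocyte score, or only the groups compared; it was 4 without the filter, 13 with array weights, 6 with the muscle score and 59 without control replicate 1 and radiation replicate 3 together. For 1D11_radiation against radiation (0) array weights gave 6 and leaving out those tumors 1. For radiation against control (304) array weights gave 890, the pan-macrophage score 23, the muscle score 526, the keratinocyte score 170, leaving out those tumors 569 and only the groups compared 6. For 1D11_radiation against 1D11 (10) the mean of probe sets gave 33, an offset of 50 gave 57, array weights 1491, trend and robust fits 63, the replicate block 1, the pan-macrophage score 5, the muscle score 4, the keratinocyte score 2, leaving out those tumors 419 and only the groups compared 119. For 1D11_radiation against control (299) no filter gave 178, array weights 923, the replicate block 85, the keratinocyte score 139 and only the groups compared 1. For the 1D11 main effect (1) the mean of probe sets, the replicate block and the keratinocyte score gave 0, quantile normalization and leaving out those tumors 2, and array weights, trend and robust fits and the muscle score 3. For the radiation main effect (925) array weights gave 2176, the keratinocyte score 237 and leaving out those tumors 1410. For the interaction (0) array weights gave 122 and leaving out those tumors 20.

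Leaving out each tumor in turn gave counts of 0 to 21 for 1D11 against control, 0 to 1 for 1D11_radiation against radiation, 20 to 436 for radiation against control, 1 to 227 for 1D11_radiation against 1D11, 17 to 424 for 1D11_radiation against control, 0 to 3 for the 1D11 main effect, 407 to 1159 for the radiation main effect and 0 to 21 for the interaction. The highest count came without control replicate 1 in 5 of these, tied with control replicate 2 for 1D11 against control, and without radiation replicate 3 in 2. Array signal over background is not known, and 3 tumors per group limit every comparison.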

Other observations

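Among genes of the IL-4 and IL-10 axis, which can raise Mrc1 in macrophages, 1 of 7 tested members rose in the radiation main effect, the receptor chain Il4ra by 0.42 ± 0.07 (adjusted p = 0.009471 in limma), and the median of the list was 0.05. With 7 members, 1 call is near the 7.26% of all genes called in that effect. Of 6 tested genes of hemoglobin and heme clearance, the pathway that CD163 feeds, 2 rose, beside the same 7.26% of all genes. They were the heme-degrading enzyme Hmox1, by 0.62 ± 0.17 (adjusted p = 0.04585 in limma), and the iron exporter Slc40a1, by 0.93 ± 0.24 (adjusted p = 0.04099). Slc40a1 is also among the resident-type macrophage genes that rose. Hmox1 stayed called in 2 and Slc40a1 in 3 of the 12 fits that left out a tumor. Cd163 itself was at -0.24 ± 0.24 in that effect (adjusted p = 0.596). Among fibroblast markers Pdgfra fell by 0.92 ± 0.10 and Pdgfrb by 1.47 ± 0.23 in the same effect, and all 9 tested members were lower.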
